A study of Homo sapiens with 2 samples.

Results

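The genes examined here carry arachidonic acid through the prostaglandin pathway, from its release out of membrane lipids to the receptors and the breakdown of prostaglandin E2. The 10 members were PLA2G4A, PTGS1, PTGS2, PTGES, PTGES2, PTGES3, PTGIS, PTGER2, PTGER4 and HPGD, chosen by name because PTGS2 was already known to differ between these arrays. All 21 probe sets that the platform annotation assigns to exactly 1 of these symbols were used, out of 41097 such probe sets for 19775 genes. Expression was measured in 2 stable populations of the human pancreatic adenocarcinoma line Panc1, whose mock form the series title calls drug-resistant. The mock population carried the vector alone and the syk population expressed the tyrosine kinase SYK in its wild-type form. Both were kept under hygromycin, were harvested below confluence from standard culture and received no other agent. There was 1 array per population and no replicate, so no test was possible and population, RNA preparation and array cannot be told apart.

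In this pathway a cytosolic phospholipase A2 cuts arachidonic acid from phospholipids and a cyclooxygenase turns it into prostaglandin H2. Terminal synthases then make the individual prostanoids, prostaglandin E2 acts on EP receptors at the cell surface, and a dehydrogenase inactivates it. PTGS2, the inducible cyclooxygenase known as COX-2, is often high in pancreatic and other gastrointestinal carcinomas and is the target of the coxibs.

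Values are log2 intensities as deposited, and each difference is syk minus mock. A difference of 1 or more in either direction, 2-fold, was counted. Signals at or below 4.77 were treated as dim. This floor was the highest value among 27 bacterial control probe sets, those for dap, lys, phe, thr and trpn. A fold with 1 array at or below it is given as a lower bound against it. The brightest probe set of a gene, by its mean over both arrays, stands for the gene. No SE or interval exists for any value, and a pooled SD of 0.35, computed among the probe sets of single genes over 6028 genes, covers probe behaviour and no variation between cultures.

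The arrays gave no clear check of their labels. None of the 4 SYK probe sets rose above 4.77 on either array, and they differed by -0.27 to 0.46, so the labels alone give the directions below. Array medians were 4.26 (mock) and 4.24 (syk). The 3' ACTB control, compared with the 5' one as a measure of RNA integrity, was higher by 1.95 on mock and by 2.37 on syk. For GAPDH the same comparison gave 0.19 on mock and 0.32 on syk. The part of RNA integrity in the results was not tested. Of 7 ductal epithelial markers, 6 lay above the floor on both arrays, but 3 of the 7 were at least 2-fold lower on syk, against 2.44% of all genes. These were CDH1 (6.34 on mock and 3.47 on syk, at least 2.98-fold), KRT19 (-1.45) and MUC1 (-1.04). KRT8 differed by -0.76 and EPCAM by 0.30. All 5 measured leukocyte markers, PTPRC and CD14 among them, lay at or below the floor on both arrays, as did all 5 endothelial markers. Among 7 fibroblast markers COL1A1 alone was above the floor, at 11.16 on mock and 10.06 on syk. Its difference of -1.09 was also past 2-fold. The part of these marker differences in the results was not tested.

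Of the 10 members, 4 differed at least 2-fold, against 4.96% of all 19775 genes. PTGS2, PLA2G4A and HPGD were higher on the syk array, where 2.52% of all genes were, and PTGIS was lower, where 2.44% were. The member set was built around a known difference, so nothing is read from these shares. The HPGD values both lay at or below the floor, and with the floor 3 of 10 members differed at least 2-fold, against 4.17% of all genes. None of these 3 was above the floor on both arrays. The remaining 6 members were under 2-fold. In a bulk population, fewer cells with a transcript and less of it per cell cannot be told apart. By probe sets, 6 of 21 differed at least 2-fold, against 4.14% of all those with 1 symbol, while 12 of the 21 lay at or below the floor on both arrays. Over the 10 members the median difference was 0.07, beside 0.03 over all genes.

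**Figure D1:**
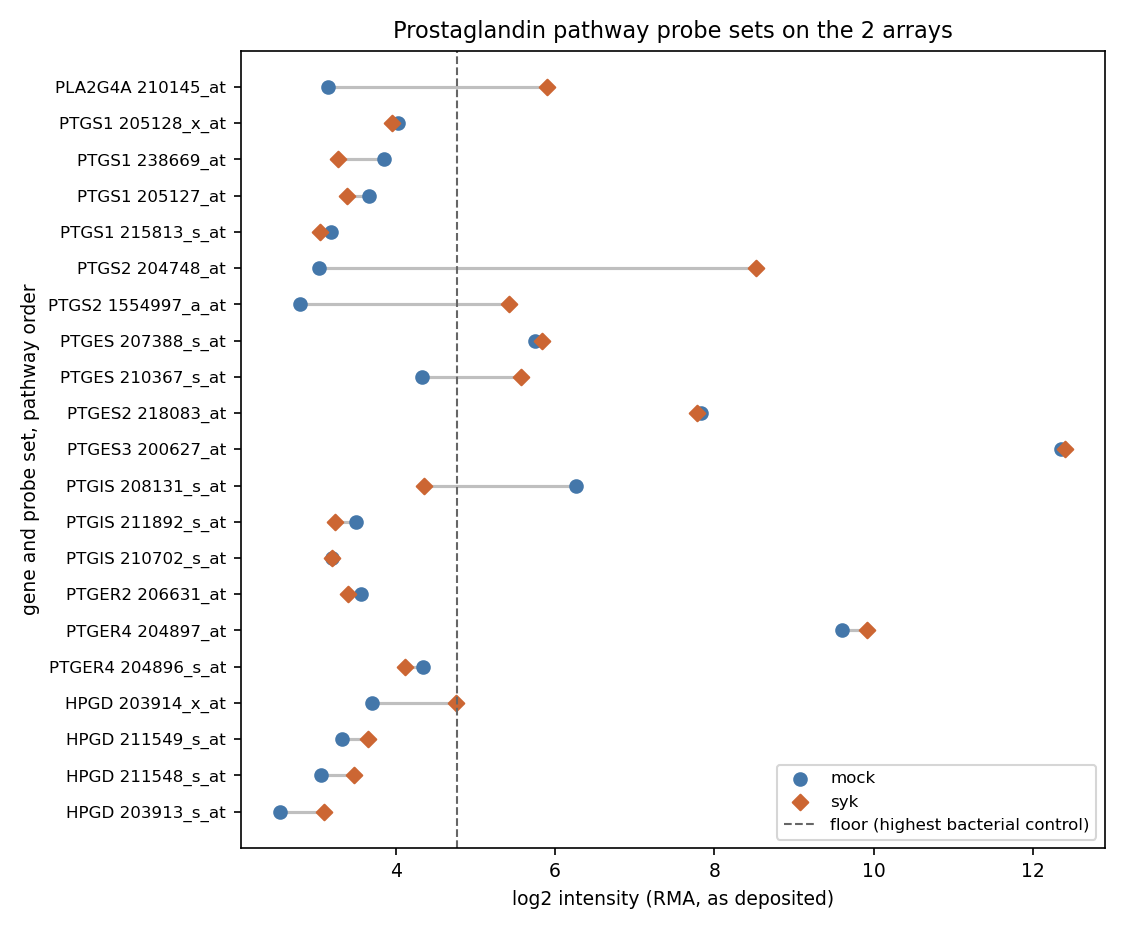
Log2 intensity (x axis) of the 21 probe sets of the 10 members (y axis, in pathway order) on the mock array (circles) and the syk array (diamonds), with the floor of 4.77 as a dashed line. Both PTGS2 probe sets and the PLA2G4A probe set cross the floor from mock to syk, as does 1 of the PTGES probe sets, 1 PTGIS probe set crosses it the other way, and all PTGS1 and HPGD probe sets stay at or below it.

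The first enzyme of the pathway was higher on the syk array. PLA2G4A, the cytosolic phospholipase A2 that releases arachidonic acid, had a single probe set, which read 3.15 on mock and 5.90 on syk. The mock signal was at the 22.2th percentile of its array's probe sets, and the syk signal at the 69.2th percentile. Against the floor PLA2G4A was at least 2.20-fold higher, a log2 difference of at least 1.14. No second probe set was there to check it.

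The cyclooxygenase step showed a large difference in PTGS2 and none past 2-fold in PTGS1. The main PTGS2 probe set, 204748_at, read 3.03 on mock and 8.52 on syk, so the gene went from the 18.1th to the 89.3th percentile of its array. Against the floor it was at least 13.5-fold higher. The other PTGS2 probe set, 1554997_a_at, ran the same way, 2.80 on mock and 5.42 on syk, which is at least 1.58-fold higher. Both probe sets were thus dim on mock and above the floor on syk. PTGS1, the constitutive cyclooxygenase COX-1, was dim in both populations. Its 4 probe sets ranged from 3.05 to 4.04 over both arrays, with differences between -0.58 and -0.08, all at or below the floor. PTGS1 transcript was therefore not detectable above this floor on either array, and no fold is given for it.

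PTGS2 and PLA2G4A are neighbours on chromosome 1. In the RefSeq gene order (GRCh38.p14) 0 protein-coding genes and 1 other gene lie between them, the non-coding PACERR, for which no probe set was named here. The 6 nearest measured protein-coding genes on each side were chosen for description after the pair's values were seen. Of these 12 neighbours, 1 differed at least 2-fold, against 4.96% of all genes, and it was lower. IVNS1ABP, an actin-binding kelch protein, read 8.51 on mock and 7.46 on syk, a difference of -1.06. The closest measured gene before the pair, PDC, lay at 2.76 and 2.68, and the closest after it, BRINP3, at 2.60 and 2.90, so both stayed below the floor. The nuclear pore protein TPR differed by -0.51, ODR4 by 0.64 and RGS2, a regulator of G protein signalling, by 0.51. In all, 7 of the 12 neighbours were at or below the floor on both arrays, and their differences ran from -1.06 to 0.64. None of the 12 was at least 2-fold higher, against 2.52% of all genes, so nothing is read from that count.

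**Figure D2:**
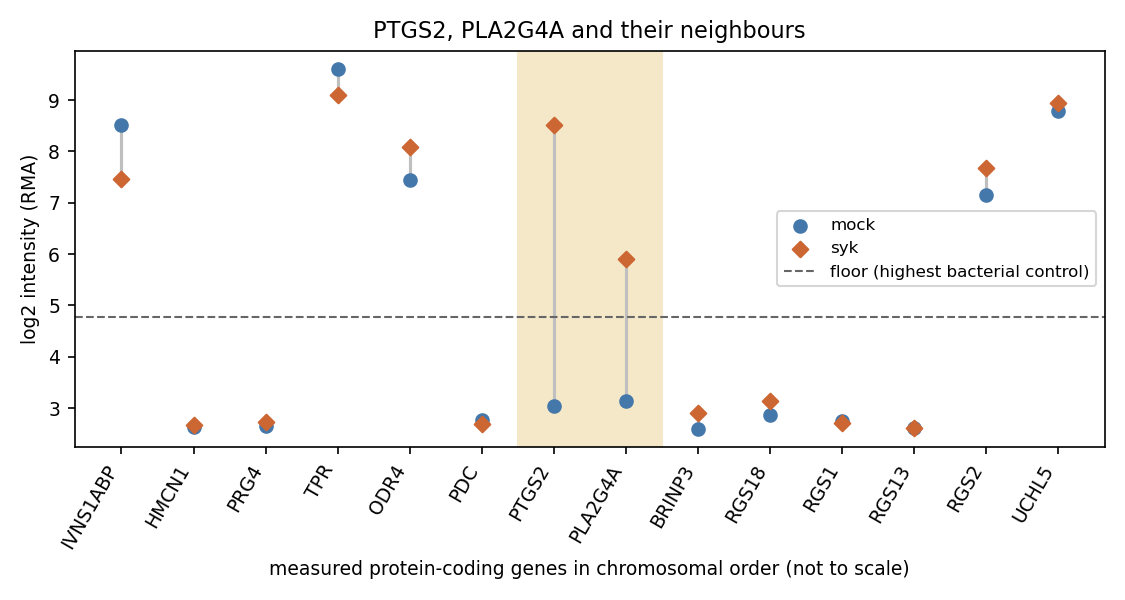
Log2 intensity (y axis) on mock (circles) and syk (diamonds) for PTGS2, PLA2G4A (shaded) and the 6 nearest measured protein-coding genes on either side, in chromosomal order and not to scale on the x axis, with the floor dashed. PTGS2 and PLA2G4A are the genes that cross the floor, and of the others IVNS1ABP has the largest difference, at -1.06.

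Since both genes of this neighbouring pair were higher on the same array, the 250 bases before their annotated starts are shown, from RefSeq (GRCh38.p14), 5′ to 3′ on the strand of each gene. The PTGS2 window is chr1:186680424-186680673 on the minus strand and the PLA2G4A window is chr1:186828699-186828948 on the plus strand. Capitals mark matches to the 6 patterns searched.
PTGS2: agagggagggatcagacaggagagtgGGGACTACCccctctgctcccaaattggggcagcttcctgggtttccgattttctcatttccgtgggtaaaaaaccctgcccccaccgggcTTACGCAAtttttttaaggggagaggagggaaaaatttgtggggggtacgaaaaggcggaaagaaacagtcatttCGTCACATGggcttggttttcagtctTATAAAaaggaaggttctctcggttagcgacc
PLA2G4A: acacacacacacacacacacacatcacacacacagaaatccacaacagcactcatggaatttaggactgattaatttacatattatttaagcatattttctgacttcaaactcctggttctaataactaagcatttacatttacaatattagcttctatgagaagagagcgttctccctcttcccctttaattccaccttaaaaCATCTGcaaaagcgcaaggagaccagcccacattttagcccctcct
All patterns were searched on both strands and were chosen with the PTGS2 window in view, so its matches are a description. An NF-kappaB site was searched as GGGACTNNC, and a C/EBP site as TTNNGCAA. The core of a cAMP response element was searched as CGTCA, and an E-box, the site of basic helix-loop-helix factors, as CANNTG. An AP-1 site was searched as TGANTCA, and the box that positions the start of transcription as TATAAA. The PTGS2 window matched 5 of them. The NF-kappaB match GGGACTACC runs from 224 to 216 bases before the start, the C/EBP match TTACGCAA from 133 to 126, the CGTCA match from 58 to 54, the E-box match CACATG from 55 to 50 and TATAAA from 32 to 27. The CGTCA and E-box matches share 2 bases. Of all 35116 windows of this length, 4.60% held the NF-kappaB pattern, 9.05% the C/EBP pattern, 21.2% CGTCA, 61.8% an E-box, 6.57% the AP-1 pattern and 10.7% TATAAA. The PLA2G4A window matched the E-box pattern alone, as CATCTG from 46 to 41 bases before the start. Its GC content was 38.8%, that of the PTGS2 window 50.4%, and the median over all windows 58%. A match is a run of letters and was not measured as a binding site here. Windows were listed for 9 of the 10 members, and PTGIS was not among them.

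The prostaglandin E synthases did not differ together. PTGES, the inducible microsomal synthase that is usually coupled to PTGS2, gave readings that depended on the probe set. Its main probe set 207388_s_at read 5.74 on mock and 5.83 on syk, a difference of 0.09, whereas 210367_s_at read 4.33 on mock and 5.58 on syk, at least 1.76-fold higher. The mock values stand on either side of the floor and the syk values both lie above it, so a 2-fold difference of PTGES is not supported by both of its probe sets. PTGES2, the membrane-associated synthase, read 7.83 on mock and 7.79 on syk, a difference of -0.04. PTGES3, a synthase also known as the HSP90 co-chaperone p23, read 12.36 on mock and 12.41 on syk, a difference of 0.05. Both of these differences were smaller than the SD of 0.35 between probe sets of 1 gene.

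PTGIS, the synthase of prostacyclin, went the other way. Its main probe set 208131_s_at read 6.27 on mock and 4.35 on syk, which is at least 2.83-fold lower. The second probe set read 3.51 on mock and 3.24 on syk and the third 3.20 on both, all below the floor, with differences of -0.26 and 0. The lower PTGIS signal on syk thus rests on 1 of 3 probe sets.

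Of the receptors for prostaglandin E2, the EP4 gene gave signal above the floor and the EP2 gene did not. PTGER4, which encodes the EP4 receptor that raises cAMP, was well above the floor on both arrays at 9.60 on mock and 9.92 on syk, a difference of 0.31. Its other probe set, at 4.35 and 4.12, was dim in both populations. PTGER2, which encodes the EP2 receptor of the same coupling, read 3.56 on mock and 3.40 on syk and lay below the floor on both arrays, so it was not detectable here. Neither receptor differed by more than the SD between probe sets.

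HPGD, the dehydrogenase that inactivates prostaglandin E2, was dim. Its 4 probe sets lay between 2.55 and 4.76 over both arrays. All 4 were nominally higher on syk, by 0.32 to 1.05, and the main one read 3.71 on mock and 4.76 on syk. Because every value was at or below 4.77, no fold is given.

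**Figure D3:**
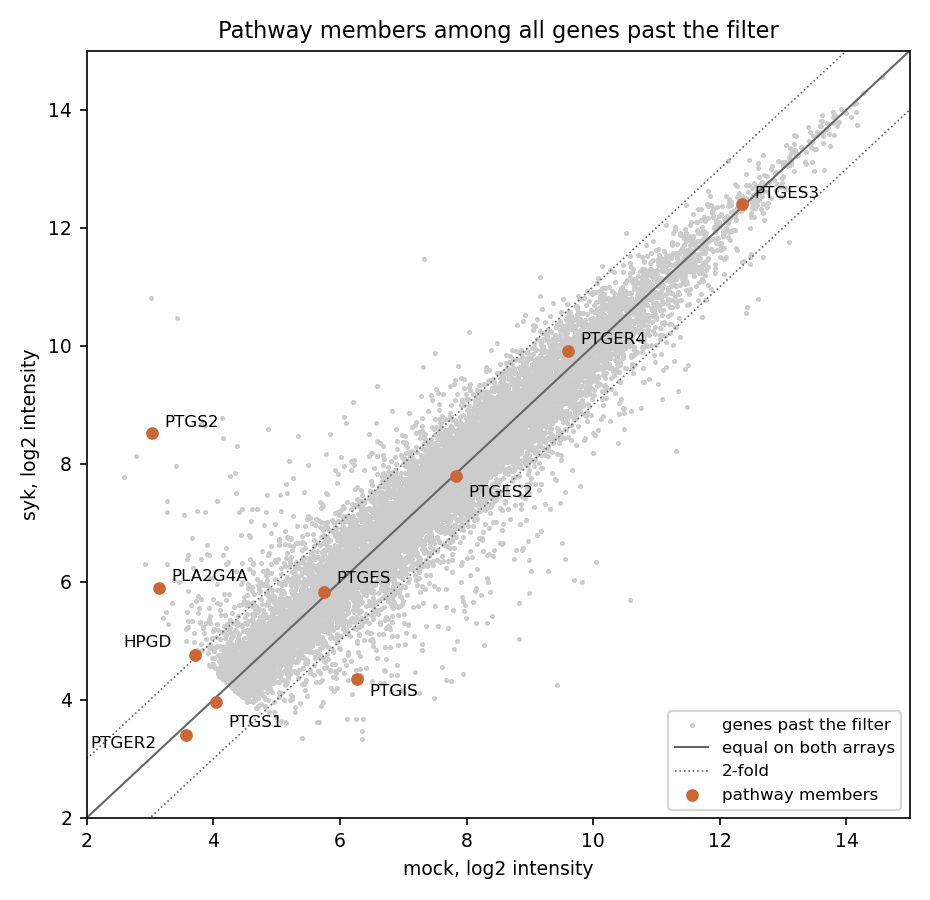
Log2 intensity on mock (x axis) against syk (y axis) for the 12814 genes past the brightness filter (grey) and the 10 members (orange), with lines of equality and of 2-fold difference. PTGS2 and PLA2G4A stand above the upper line and PTGIS below the lower one. HPGD lies on the upper line with both values at or below 4.77, and it, PTGS1 and PTGER2 did not pass the filter.

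By Euclidean distance over the 2 arrays' log2 values, all within 0.87, the 5 genes nearest to PTGS2 were CCN3, CXCR4, FLRT3, HS6ST2 and SCD5, which are given in no order. Their mock values, 2.60 (HS6ST2) to 3.87 (FLRT3), were all below the floor, so the choice of these 5 rests partly on background signal and on values of different probes. What they share with PTGS2 is dim signal on mock and 7.77 (HS6ST2) to 8.69 (SCD5) on syk.

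Around the 10 members, 12 lists of further genes of the pathway and its control were examined, with 139 genes in all. Of these, 129 had a probe set with 1 symbol and 99 passed the brightness filter, a mean at or above 4.25. As deposited, 10 of the 99 differed at least 2-fold (10.1%), against 7.26% of the 12814 genes past the filter. The 2 higher on syk were NR4A2 and NR4A3, against 3.61% of genes past the filter, and 8 were lower, against 3.65%. The median difference was -0.06, beside 0.01 over all genes past the filter. With the mean over probe sets 4 of 82 genes (4.88%) differed at least 2-fold, against 4.82% of all genes past the filter. With the median 3 of 80 (3.75%) did, against 5.75%. With the floor 7 of the 99 did (7.07%), against 6.42%. Without a filter 12 of 129 did (9.30%), against 4.96%. The share was below the background with the median over probe sets alone, and above it in the other settings examined. The lists were chosen with earlier results of these data known. Nothing is therefore read from these shares or from the counts of single lists below.

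Of the enzymes listed for putting fatty acids, arachidonic acid among them, back into phospholipids, 6 passed the filter. LPCAT2 and ACSL4 were at least 2-fold lower on syk, against 3.65% of all genes past the filter, 4 were under 2-fold and 0 were higher. The list median was -0.72, beside 0.01 over all genes past the filter. Because the list was chosen with earlier results of these data known, nothing is read from its count or median. LPCAT2, an acyltransferase that remakes phosphatidylcholine, read 8.15 on mock and 5.30 on syk, a difference of -2.85, while its other 3 probe sets differed by -0.87, -0.45 and -0.25. ACSL4, the acyl-CoA synthetase that prefers arachidonic acid, read 6.39 on mock and 5.01 on syk, a difference of -1.37, and its other 2 probe sets lay below the floor on both arrays. MBOAT7, which places arachidonic acid in phosphatidylinositol, differed by -0.83 (9.16 and 8.33), and its other probe set by -0.31. ACSL1 differed by -0.11 and LPCAT1 by -0.61. LPCAT3 had probe sets of opposite sign, 0.61 and -0.68. Other enzymes that release arachidonic acid or its precursors stayed under 2-fold in all 9 genes past the filter. Of all genes past the filter 7.26% did not. The list median was 0.12, the value of PLA2G5, and 0 with the floor. Among these enzymes DAGLB, a diacylglycerol lipase, differed by 0.56, and its other probe sets by 0.64, 0.03 and -0.12. The secreted phospholipase PLA2G12A differed by 0.46, and its other probe sets by 0.57, 0.28 and 0.21. PLA2G4C, PLA2G2A, PLA2G5, FAAH and DAGLA were below the floor on both arrays, so their staying under 2-fold says little.

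Among other enzymes, receptors and transporters of prostanoids, PRXL2B and TBXA2R were at least 2-fold lower, 2 of 12 genes past the filter, against 3.65% of all. Of 3 further terminal enzymes past the filter, PRXL2B, a prostamide and prostaglandin F synthase, read 7.04 on mock and 5.92 on syk, a difference of -1.11. CBR1, which reduces prostaglandin E2, differed by -0.22 and PTGDS, a prostaglandin D synthase, by 0.05. All 6 receptor genes past the filter had differences below 0, with a median of -0.15, beside 0.01 over all genes past the filter. PTGER1, PTGDR2, PTGIR (-0.08) and PPARD (-0.08) differed by less than the SD of 0.35 between probe sets. Nothing is therefore read from the shared sign. TBXA2R, the thromboxane receptor, read 7.47 on mock and 6.28 on syk, a difference of -1.20, but its other 3 probe sets differed by -0.59, -0.11 and 0.06. The nuclear receptor PPARG, which binds prostaglandin J2 derivatives, differed by -0.69, the EP1 receptor gene PTGER1 by -0.17 and the prostaglandin D2 receptor gene PTGDR2 by -0.12. Another PTGER1 probe set above the floor had the opposite sign, 0.19. Of transport and breakdown genes 3 passed the filter and 0 passed 2-fold, with a median of -0.73. The exporter ABCC4 read 9.71 on mock and 8.98 on syk, the transporter SLCO3A1 7.03 and 6.16, and the reductase PTGR1 9.31 and 9.01. The median is the value of this ABCC4 probe set, whose other probe sets above the floor differed by only -0.12 and -0.05. Other probe sets above the floor differed by -0.90 and -0.41 for SLCO3A1, and by -0.49 and -0.69 for PTGR1.

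Of the lipoxygenase and leukotriene genes, which use the same arachidonic acid, 6 passed the filter and 0 passed 2-fold, where 7.26% of all genes past the filter did. LTC4S (-0.59), ALOXE3 (0.53) and ALOX5AP (-0.50) each had 1 array at or below the floor, and ALOX15B (-0.27) had both. In the cytochrome and epoxide list 1 of 3 genes past the filter was at least 2-fold lower, against 3.65% of all, and this was EPHX1, an epoxide hydrolase, at 9.06 on mock and 7.96 on syk. CYP2U1 differed by 0.34, and CYP4A11 (0.48) was below the floor on both arrays.

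Among genes known to control PTGS2, 1 of 19 transcription factors, 1 of 11 RNA-binding proteins and 0 of 8 interleukin-1 and TNF pathway genes differed at least 2-fold. These counts stand beside 7.26% of all genes past the filter, and nothing is read from them. Of 19 transcription factors with known sites in the PTGS2 promoter, 1 was at least 2-fold lower, 0 were higher and the median was -0.02. This was NFATC2, a calcium-regulated factor, at 5.66 on mock and 4.49 on syk, at least 1.86-fold lower against the floor, with another probe set at 5.53 and 3.91. ATF2 differed by -0.82, with -0.27 in another probe set above the floor. FOSL1, an AP-1 subunit, differed by -0.43 and the NF-kappaB subunit REL by 0.31. Of 11 RNA-binding proteins that regulate PTGS2 mRNA, 1 was at least 2-fold lower and the median was -0.03. This was the cold-inducible RBM3, at 9.29 on mock and 8.28 on syk, with its other probe set at -0.87. CELF1 and ZFP36L1, which promote decay of AU-rich or GU-rich messages, both differed by -0.38. Other CELF1 probe sets above the floor differed by -0.31, -0.28, -0.15 and -0.08. The other ZFP36L1 probe sets and CELF2 were below the floor on both arrays. Of 8 interleukin-1 and TNF pathway genes past the filter, 0 passed 2-fold and the median was -0.32. The adaptor MYD88 read 9.93 on mock and 8.97 on syk, the TNF receptor TNFRSF1A 9.25 and 8.40, and TNFRSF1B 5.27 and 4.79. The receptor antagonist IL1RN read 5.03 on mock and 4.70 on syk, at least 1.20-fold lower against the floor. Its other probe sets were below the floor on both arrays.

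Downstream of EP2 and EP4, 1 of 18 cAMP signalling genes past the filter was at least 2-fold lower, 0 were higher and the median was -0.06. That count lies near the 7.26% of all genes past the filter and is not a result about the list. PDE4A, a phosphodiesterase that degrades cAMP, read 6.75 on mock and 5.37 on syk, a difference of -1.38, with its other 4 probe sets below the floor on both arrays. The adenylyl cyclase ADCY9 differed by -0.91, although its second probe set differed by 0.05, and the kinase subunit PRKAR1A by -0.56, with -0.23 and 0.07 in its other probe sets above the floor. ADCY1 was below the floor on both arrays. Of 7 CREB targets past the filter, 2 were at least 2-fold higher by the values as deposited, against 3.61% of all genes past the filter, and 0 were with the floor. The list median was 0.25. NR4A2, an orphan nuclear receptor of the immediate early class, read 3.60 on mock and 5.34 on syk, and its other 2 probe sets read 3.87 and 4.95, and 3.42 and 5.29. All 3 mock signals lay below the floor, and the bounds against it were at least 1.49-fold, 1.13-fold and 1.44-fold higher. NR4A3, of the same family, read 4.40 on mock and 5.43 on syk, at least 1.58-fold higher, while its other 2 probe sets were below the floor on both arrays. NR4A1 differed by 0.41, and its other probe sets by 0.37 and -0.08. VEGFA differed by -0.35, but its other probe sets had the opposite sign, at 0.13, 0.19 and 0.17.

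**Figure D4:**
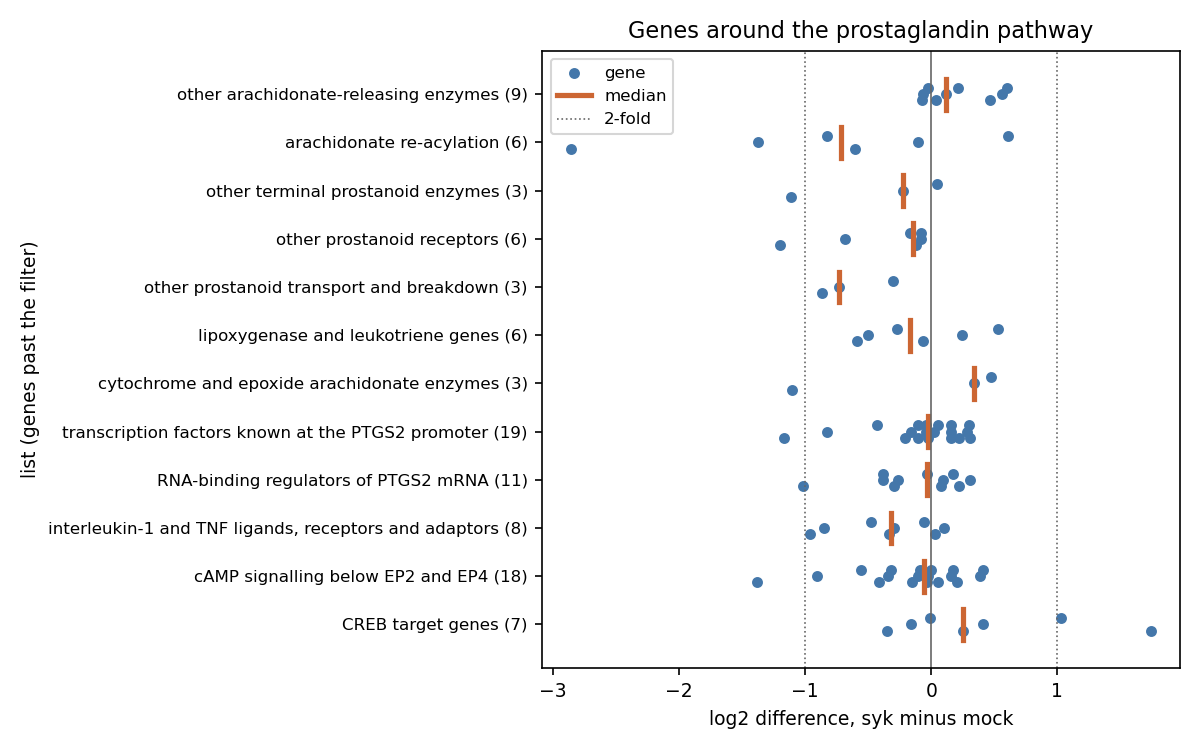
Log2 difference, syk minus mock (x axis), of the genes past the brightness filter in the 12 lists around the pathway (y axis, number of genes in brackets), 1 point per gene, with list medians as bars and 2-fold as dotted lines. LPCAT2 is the point near -2.85 in the re-acylation list, NR4A2 and NR4A3 are the points beyond the right dotted line, both with mock values below the floor, and most other genes lie between the dotted lines.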

How the data were processed

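Total RNA of each population was labelled from 100 ng and hybridised to 1 Affymetrix array, per the labels' protocols. The authors deposited 1 log2 intensity per probe set and array, made with RMA per the submitters' processing notes; version and settings are not given in the sources used here. The log base was taken from the range, 2.14 to 14.6. RMA shrinks differences between dim signals. Of 54675 probe sets, 41097 had 1 symbol in the platform annotation, 1801 had several and 11777 were unnamed here, and all 10 members matched their RefSeq gene ID.

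Differences and counts were computed with pandas 2.3.3 and the loess trend (span 0.2) with statsmodels 0.14.6. The brightness filter was the 50th percentile of probe set means, 4.25. The floor came from the 27 bacterial control probe sets for dap, lys, phe, thr and trpn alone. Named were all members, up to 4 genes per list with the largest difference, and the 5 genes nearest to PTGS2. The members and lists were chosen with earlier results of these data known. The gene step was tested on simulated data. The number of arrays limits the precision.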

Additional observations from a re-analysis of the deposited data

How the results depend on the processing

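Alternatives were median centring, loess, the mean or median over probe sets, probe sets ending in _at alone, other filters, the floor and, chosen after seeing the data, a floor at the second highest bacterial control (3.61). A difference counted as moved when it shifted by the SD of 0.35 between probe sets or more, and a count when it changed by over 1.5 times. Of 192 values, 164 did neither, and 0 of the differences past 2-fold changed sign. Raising values to a floor cannot reverse a sign, and median centring moves every difference by the same small amount. These counts are therefore only a description. PTGS2 differed by 3.75 with the floor, 4.91 with the lower floor and 4.05 with the mean or the median over probe sets, and PLA2G4A by 1.14 with the floor and 2.29 with the lower one. PTGIS differed by -1.50 with the floor, -0.73 with the mean and -0.26 with the median, and HPGD by 0, 0.59 and 0.37. PTGES differed by 0.67 with the mean or the median, and PTGS1 by -0.58 with _at probe sets alone. Members past 2-fold were 2 with the mean, 2 with the median and 2 of the 7 measured by _at probe sets. All genes past 2-fold numbered 562 with the mean and 486 under the stricter filter (the 75th percentile), while pathway list genes numbered 4 with the mean, 3 with the median and 4 under that filter. List medians that moved were -0.36 (re-acylation) with _at probe sets, -0.85 (interleukin-1 and TNF) and -0.69 (receptors) with the stricter filter, -0.54 (lipoxygenases) with the median over probe sets and -0.32 (transport and breakdown) without a filter. The medians of CREB targets (-0.08 to 0.27), lipoxygenases (-0.54 to 0.06) and transcription factors (-0.05 to 0.04) took either sign. These shifts follow from the probe sets or genes each alternative keeps or raises to the floor. No paired analysis was possible because each group had 1 array and the result comes from no test.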
